A study of Mus musculus with 18 samples.

Results

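Gpr149, Dynap, Aqp8, Prl2c3, Pbp2, Gm44275, Gm20744, Prkg2 and Rgs8 are 9 of the 54532 genes in a table of read counts from mouse breast tumours. They were chosen because their mRNA was near 0 or low in EV tumours and higher in p95HER2 tumours, so their levels in the 2 groups are given below as a description, with no test. That rule did not use how each gene followed Erbb2 among the p95HER2 tumours, and this is tested. Their gene families, the tissues they are known from and their neighbours on the chromosomes are tested too. Members and gene lists were, however, chosen with earlier results of these data known.

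The table covers 18 tumours grown in mice from PB2, a mouse breast cancer cell line: 8 tumours with the genotype p95HER2 and 10 with the genotype EV. All mice, in both groups, were fed a doxycycline diet (DOX625). The labels do not spell out EV, do not say what drives p95HER2 or whether doxycycline controls it, and give neither the strain, sex and age of the mice nor whether the cells were 1 clone. Whether each tumour grew in its own mouse is unstated, and the p-values cover only sample-to-sample spread, which may be technical. RNA enriched for mRNA was sequenced from whole tumours, in which fewer cells of a type and less RNA per cell cannot be told apart.

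HER2, the product of Erbb2, is a receptor tyrosine kinase that drives growth of breast epithelium through the MAP kinase and PI3 kinase pathways. The name p95HER2 covers truncated HER2 fragments that have lost most of the outer part of the receptor, where the antibody trastuzumab binds, and keep the kinase. The 7 protein-coding genes among the 9 are known mainly from work outside the breast. Prl2c3 encodes a proliferin, a prolactin-like hormone of the rodent placenta, and Gpr149 an orphan receptor of the G-protein-coupled class that is found in mouse oocytes. Rgs8 encodes an inhibitor of G-protein signalling that is abundant in cerebellar Purkinje cells, and Prkg2 the membrane-bound protein kinase that cyclic GMP activates in intestine and growing cartilage. Aqp8 encodes a channel for water and hydrogen peroxide in the epithelium of colon, liver and pancreas. Dynap encodes a membrane protein described in human cells as a partner of dynactin, and Pbp2 a phosphatidylethanolamine-binding protein of mouse testis. Gm44275 and Gm20744 are annotated as long intergenic non-coding RNAs and have no role given here.

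Libraries held 32686558 to 34804640 counts in p95HER2 tumours and 35030920 to 38464541 in EV tumours, and no total of 1 group fell within the range of the other. The tag number of p95HER2 1 stands well apart from the closely spaced numbers of the others, for no stated reason. Erbb2 (mm10, 11:98412470-98437716, plus strand) had 121.8 CPM (counts scaled to the size of the library) in the lowest p95HER2 tumour, a median of 142.8 and 231.1 in the highest, against 60.4, 68.1 and 74.9 CPM in EV tumours. Every p95HER2 tumour thus lay above every EV tumour. Reads from a transgene and from the mouse gene cannot be told apart in this count, and a human sequence would be counted only in part. The markers listed as luminal epithelial were present, with a summed level of 2150 to 2701 CPM in p95HER2 tumours and 1984 to 3298 CPM in EV tumours. Of these 10 markers 1, Krt7, was called higher. Of 12 macrophage markers edgeR called 7 lower and DESeq2 11, with all 12 at an unadjusted p under 0.05 in edgeR and a sum of 434 to 965 CPM in p95HER2 tumours and 668 to 1474 CPM in EV tumours. Of 10 T cell markers edgeR called 2 lower and DESeq2 6, with all 10 at an unadjusted p under 0.05 in edgeR and a median log2 fold change of -1.07 (8.89 to 36.7 and 15.7 to 83.3 CPM). Of 7 tested adipocyte markers both called 6 lower (11.998 to 40.2 and 31.2 to 132 CPM). Over all 17123 genes tested edgeR called 4.45% lower, and 4502 had an unadjusted p under 0.05. DESeq2 called 1267 higher and 1156 lower of 19426 genes. Of 10 fibroblast markers edgeR called 1 lower and DESeq2 2 (1535 to 3368 and 1768 to 4250 CPM), and no endothelial marker of 8 was called in edgeR or DESeq2, with none at an unadjusted p under 0.05 (80.7 to 133 and 74.4 to 151 CPM). No marker of these lists was at 0 in every library. Their part in the differences between the groups was not tested. The luminal and macrophage levels were used as covariates for the slopes on Erbb2 only.

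The members were found at their own rows by symbol, on 7 chromosomes. Prl2c3 is the 1 member whose sequence bears on how far its count can be trusted. Of its 1357 stretches of 50 bases, 814 (59.99%) also occur in the paralog Prl2c2, against at most 0.45% in another gene for any other member. Along 842 aligned bases the transcripts of Prl2c3 and Prl2c2 are 99.5% identical, and Prl2c3 and Prl2c5 96.4%. Within the 675 coding bases, 3 differ between Prl2c3 and Prl2c2. The first 60 coding bases of both, 5′ to 3′ from GENCODE M21, show how little separates them, with the differing base in capitals:
Prl2c3: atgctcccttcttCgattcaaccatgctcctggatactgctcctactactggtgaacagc
Prl2c2: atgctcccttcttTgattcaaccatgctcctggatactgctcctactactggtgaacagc
A read without a differing base cannot be assigned to either gene, so the counts of both are uncertain. How the authors' counting treated shared reads is not stated.

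The promoters of Dynap, Gpr149, Gm44275 and Prkg2 were not examined. For the other 5 members RefSeq (GRCm38.p6) start sites gave promoter windows, from 250 bases before to 50 after the start. Those of Prl2c3, Aqp8 and Pbp2 are shown up to the start site because these genes were among those at 3 or fewer counts in the middle EV tumour, and they differ in composition, with 35.2% G and C for Prl2c3 and Pbp2 and 52.4% for Aqp8. They lie at 13:12800080-12800329 on the minus strand, 7:123462044-123462293 on the plus strand and 6:135310385-135310634 on the minus strand, and capitals mark the letters TATAAA:
Prl2c3: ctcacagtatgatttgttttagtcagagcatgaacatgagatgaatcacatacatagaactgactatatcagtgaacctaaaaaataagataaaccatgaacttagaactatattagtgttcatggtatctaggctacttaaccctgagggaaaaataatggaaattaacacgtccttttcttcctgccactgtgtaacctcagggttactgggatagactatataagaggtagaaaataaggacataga
Aqp8: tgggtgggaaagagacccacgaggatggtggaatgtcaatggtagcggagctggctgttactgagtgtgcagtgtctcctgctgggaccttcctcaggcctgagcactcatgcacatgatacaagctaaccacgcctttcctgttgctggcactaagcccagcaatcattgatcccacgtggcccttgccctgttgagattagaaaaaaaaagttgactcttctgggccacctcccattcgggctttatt
Pbp2: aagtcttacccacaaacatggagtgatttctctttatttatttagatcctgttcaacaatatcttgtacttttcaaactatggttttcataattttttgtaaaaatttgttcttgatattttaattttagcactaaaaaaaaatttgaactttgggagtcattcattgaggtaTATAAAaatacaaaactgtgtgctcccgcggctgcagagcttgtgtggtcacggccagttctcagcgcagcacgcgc
The windows of the 5 members, 7 in all with 3 start sites for Rgs8, were searched on both strands for the AP-1 site TGACTCA, the ETS site CCGGAAGT, the CRE site TGACGTCA and the TATA box TATAAA, none of which contains another. The 1 match was TATAAA in Pbp2, beginning 77 bases before the start. Only these exact letters were searched, so variants of a site were not counted. The Prl2c3 window, for example, holds tatataag near its end, and whether it serves as a TATA box was not tested. Of 32851 promoters of the same length, 13.6% held TATAAA, 5.20% the AP-1, 3.89% the ETS and 1.79% the CRE letters.

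Among the signalling members, Prl2c3, the proliferin (13:12790816-12800079, minus strand), had 63 counts in the lowest p95HER2 tumour, a median of 108.5 and 697 in the highest. In EV tumours 9 of 10 libraries had 0 and EV 5 had 1 count. In CPM the p95HER2 tumours held 1.79, 3.19 and 20.9 (lowest, median, highest), and their mean was 5.97 ± 6.38 (SD, n = 8), against 0.00259 ± 0.00819 in EV tumours (SD, n = 10). Tumour p95HER2 6 stood far above all others, p95HER2 8 came next, and the groups did not overlap. Without p95HER2 6 and 8 the mean was 3.10 ± 1.23 CPM. The ratio of counts per library total was 2176, with a 95% interval of 390 to 85982 that covers counting error only, as do the intervals of the other ratios below.

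Gpr149, the orphan receptor (3:62529077-62605140, minus strand), had 62 counts in the lowest p95HER2 tumour, a median of 97 and 341 in the highest. In EV tumours 8 of 10 libraries had 0 and EV 2 and EV 7 had 1 count each. The p95HER2 mean was 3.97 ± 2.84 CPM, against 0.00551 ± 0.0116 CPM in EV tumours, and 2.57 ± 0.513 CPM in p95HER2 tumours without p95HER2 6 and 8. Again p95HER2 6 and 8 were the highest and the other 6 tumours lay close together, all above every EV tumour. The ratio of counts was 725 (200 to 5992).

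Rgs8, the G-protein inhibitor (1:153653025-153700323, plus strand), was not silent in EV tumours. It had 1.49, 3.20 and 6.78 CPM in p95HER2 tumours (lowest, median, highest), against 0.356, 0.670 and 2.13 CPM in EV tumours. The groups overlapped, since EV 7 lay above p95HER2 4, so the mRNA was not higher in every p95HER2 tumour than in every EV tumour. The mean was 3.62 ± 1.76 CPM against 0.869 ± 0.537 CPM, a log2 fold change of 2.06 (SE 0.33).

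Prkg2, the cyclic GMP-dependent kinase (5:98929773-99037351, minus strand), was likewise present in all 18 tumours. It had 3.96, 6.54 and 15.1 CPM in p95HER2 tumours, against 0.795, 1.33 and 2.34 CPM in EV tumours. No EV tumour reached the lowest p95HER2 tumour, p95HER2 7, and p95HER2 6 and 8 were the highest. The log2 fold change was 2.51 (SE 0.26), so Prkg2 and Rgs8 were raised in p95HER2 tumours but already transcribed in EV tumours.

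Among the membrane and lipid-binding members, Aqp8, the water channel (7:123462291-123468004, plus strand), had 48 counts in the lowest p95HER2 tumour, a median of 103 and 306 in the highest. EV 3 had 2 counts, EV 8 had 1 and the other 8 EV tumours had 0. The mean was 3.99 ± 2.91 CPM in p95HER2 tumours and 0.00845 ± 0.0192 CPM in EV tumours, and the ratio of counts was 485 (166 to 2358). The groups did not overlap. Tumours p95HER2 6 and 8 were the highest and p95HER2 5 and 7 the lowest, and the mean without 6 and 8 was 2.51 ± 1.06 CPM.

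Dynap, the dynactin partner (18:70240429-70244582, minus strand), had 125 counts in the lowest p95HER2 tumour, a median of 193.5 and 548 in the highest. In EV tumours it had 7 counts in EV 1, 4 in EV 10, 1 each in EV 5, 7 and 8, and 0 in the remaining 5. The mean was 7.90 ± 5.02 CPM in p95HER2 tumours and 0.0380 ± 0.0631 CPM in EV tumours, and the ratio of counts was 206 (122 to 377). The groups were far apart, with p95HER2 6 and 8 close to each other above the rest.

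Pbp2, the testis phospholipid-binding protein (6:135309127-135310405, minus strand), was low in both groups. It had 0.604, 1.64 and 3.96 CPM in p95HER2 tumours and 0.0266, 0.0812 and 0.172 CPM in EV tumours, where each library held 1 to 6 counts. The groups did not overlap, and the log2 fold change was 4.33 (SE 0.39), a ratio of counts of 20.7 (14.5 to 30.4).

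The non-coding RNA Gm44275 (6:135312155-135319561) lies on the same strand as Pbp2 and ends 1750 bases before its start. It had 1.33, 2.45 and 5.73 CPM in p95HER2 tumours and 0.0270, 0.0814 and 0.272 CPM in EV tumours. The log2 fold change was 4.67 (SE 0.41). Gm20744 (7:82070387-82081758, plus strand), the other non-coding RNA, had 0.332, 0.927 and 2.25 CPM in p95HER2 tumours and 0, 0.0705 and 0.192 CPM in EV tumours, with a log2 fold change of 3.55 (SE 0.42). Neither RNA overlapped between the groups. Gm20744 was the 1 member with its highest value in p95HER2 8 and not in p95HER2 6.

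**Figure D1:**
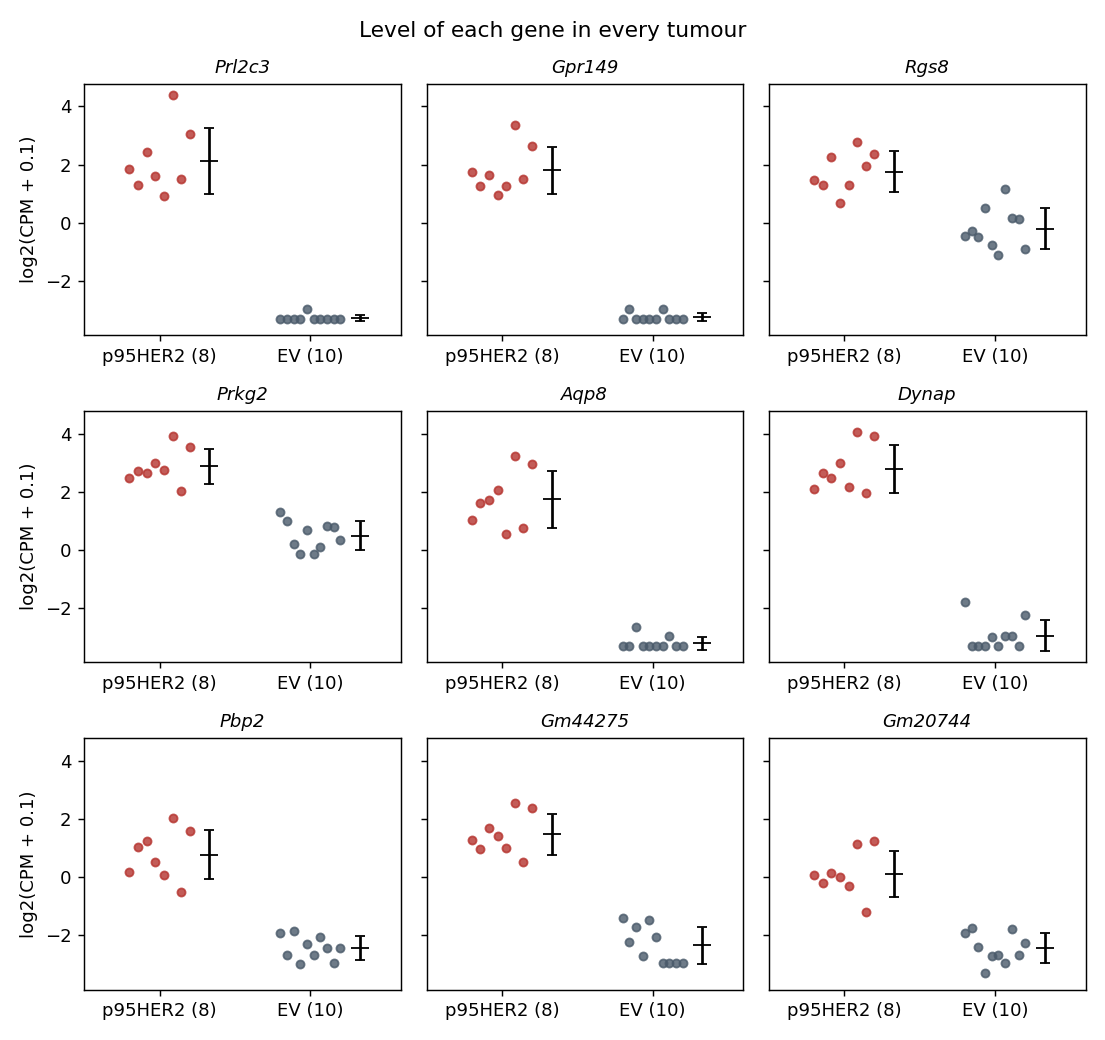
Level of each of the 9 genes, as log2(CPM + 0.1), in the 8 p95HER2 tumours (left) and the 10 EV tumours (right). Each point is a tumour and bars give mean and SD. The groups are apart in 8 panels, and in the Rgs8 panel EV 7 (2.13 CPM) lies above p95HER2 4 (1.49 CPM).

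In all, 8 of the 9 genes had every p95HER2 tumour above every EV tumour. Over the 17123 genes that passed the filter on low counts this held for 116 (0.677%), while edgeR called 5.73% higher and 10.2% in either direction. These shares are given for scale only, since the 9 were chosen on this contrast. All 9 passed that filter, through the p95HER2 tumours alone for the genes near 0 in EV tumours. Per kilobase of exon, the p95HER2 mean was 6.45 ± 4.10 CPM for Dynap, 4.39 ± 4.69 for Prl2c3 and 2.53 ± 1.84 for Aqp8. It was 1.46 ± 0.677 for Prkg2, 1.46 ± 0.889 for Pbp2, 1.19 ± 0.635 for Gm44275, 0.925 ± 0.663 for Gpr149, 0.429 ± 0.259 for Gm20744 and 0.376 ± 0.182 for Rgs8. Every neighbouring pair in this order lay within the larger of its SDs. All 9 stayed far below Erbb2, at 30.4 ± 7.25 CPM per kilobase. In EV tumours the order differed: Prkg2 came first with 0.256 ± 0.0951 and Rgs8 next with 0.0902 ± 0.0557, while Gpr149 and Prl2c3 were last with 0.00129 ± 0.00271 and 0.00191 ± 0.00602.

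The members next were set against Erbb2 among the 8 p95HER2 tumours, where Erbb2 ranged 1.90-fold, in the order p95HER2 7 (121.8 CPM), 5 (126.0), 2 (136.2), 1 (136.6), 3 (149.1), 4 (180.6), 6 (186.0) and 8 (231.1). By Pearson's r on the log scale Dynap and Aqp8 followed Erbb2 most closely, and by r and by Spearman's rho Rgs8 and Gpr149 followed it least. By rho, Aqp8, Gm44275 and Gm20744 shared the highest value, and on linear CPM Gm20744 (r = 0.883) lay above Dynap (0.876) and Aqp8 (0.862). Every member had a positive slope, with a median of 2.08 on the log2 scale per doubling of Erbb2. The 15284 genes tested had a median slope of 0.00, and 50.7% of them were positive. The members share the same 8 tumours and the high values of p95HER2 6 and 8, so their slopes are not separate observations. Without p95HER2 6 and 8 the slopes of Gpr149 and Rgs8 were -0.75 and -1.22. In edgeR 35 of the 15284 genes (0.229%) had a positive slope that passed at an adjusted p under 0.05, and Dynap and Aqp8 were among them. No gene had a negative slope that passed in edgeR, with 539 at an unadjusted p under 0.05, and DESeq2 called 28 negative. The count of genes that passed was 2 without any 1 of p95HER2 1, 2, 5 or 7, 5 without p95HER2 8, 12 without p95HER2 3 and 121 without p95HER2 4. Without p95HER2 6 it was 36.

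Dynap rose by 2.40 on the log2 scale per doubling of Erbb2 (SE 0.35, edgeR adjusted p = 0.0274). Its values ran, with Erbb2, from p95HER2 7 (3.78 CPM) over p95HER2 4 (7.90 CPM) to p95HER2 6 and 8 (16.43 and 15.02 CPM). Pearson's r between log2(Dynap CPM + 0.1) and log2 Erbb2 CPM was 0.914 (exact permutation p = 0.00171, adjusted over all genes 0.326) and Spearman's rho 0.857 (exact permutation p = 0.0107, adjusted 0.630). Without p95HER2 6 and 8, the tumours farthest from the median Erbb2, r was 0.878 (exact permutation p = 0.0236, n = 6).

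Aqp8 rose by 2.92 per doubling (SE 0.45, edgeR adjusted p = 0.0324), from 1.57 and 1.37 CPM in p95HER2 7 and 5, over 4.06 CPM in p95HER2 4, to 9.17 and 7.70 CPM in p95HER2 6 and 8. Its r was 0.912 (exact permutation p = 0.00102, adjusted 0.283), its rho 0.929 (exact permutation p = 0.00223, adjusted 0.474) and its r without p95HER2 6 and 8 0.881 (exact permutation p = 0.00833, n = 6). Among the other 6 tumours the slopes were 1.74 for Dynap and 2.67 for Aqp8, and neither passed in edgeR (adjusted p = 0.326 and 0.286). Leaving out any 1 of p95HER2 1, 2, 3, 5, 7 or 8 also ended both calls, with slopes of 2.31 to 2.86 and 2.70 to 3.70 and edgeR adjusted p up to 0.161 and 0.150. Both calls stayed without p95HER2 4 (edgeR adjusted p = 0.01282 and 0.01576) and without p95HER2 6 (edgeR adjusted p = 0.01145 and 0.02806). With Erbb2 on a linear scale Dynap still passed (edgeR adjusted p = 0.0377) and Aqp8 did not (edgeR adjusted p = 0.0515). Over all 8 tumours both passed in DESeq2 (adjusted p = 2.94e-08 and 1.12e-07) and in edgeR with no filter on low counts (adjusted p = 0.00166 for each).

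Gm44275, Gm20744 and Prkg2 had r of 0.871, 0.862 and 0.830 (exact permutation p = 0.00476, 0.00176 and 0.00962, adjusted 0.379, 0.326 and 0.439) and rho of 0.929, 0.929 and 0.762 (exact permutation p = 0.00223, 0.00223 and 0.0368, adjusted 0.474, 0.474 and 0.692). Their slopes were 2.01 (SE 0.41), 2.25 (SE 0.48) and 1.61 (SE 0.36), and none passed in edgeR (adjusted p = 0.0854, 0.1003 and 0.129). All 3 passed in DESeq2 (adjusted p = 0.000578, 0.00850 and 0.00166) and in edgeR with no filter on low counts (adjusted p = 0.0198, 0.0498 and 0.0454). Without p95HER2 6 and 8 their r was 0.716, 0.610 and 0.710 (exact permutation p = 0.110, 0.201 and 0.132, n = 6).

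Pbp2 and Prl2c3 were less closely tied to Erbb2. Pbp2 had r = 0.746 (exact permutation p = 0.0355, adjusted 0.564) and rho = 0.857 (exact permutation p = 0.0107, adjusted 0.630). Prl2c3 had r = 0.695 (exact permutation p = 0.0510, adjusted 0.602) and rho = 0.833 (exact permutation p = 0.0154, adjusted 0.637). Their slopes of 2.08 (SE 0.64) and 3.08 (SE 1.04) did not pass in edgeR (adjusted p = 0.302 and 0.416), and Pbp2 passed in DESeq2 (adjusted p = 0.0493). Without p95HER2 6 and 8 r was 0.513 and the slope 1.75 (edgeR adjusted p = 0.672) for Pbp2, and r was 0.379 and the slope 1.09 (edgeR adjusted p = 0.764) for Prl2c3. Without p95HER2 6 alone the slope of Prl2c3 was 1.77, and with each tumour left out in turn it ran from 1.77 to 4.32, while that of Pbp2 ran from 1.63 to 2.90. In both genes, as in Gm44275, Gm20744, Gpr149 and Rgs8, p95HER2 4 lay below p95HER2 3, although its Erbb2 was higher.

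Gpr149 and Rgs8 did not follow Erbb2 outside p95HER2 6 and 8. Gpr149 had r = 0.597 (exact permutation p = 0.113, adjusted 0.680), rho = 0.50 (exact permutation p = 0.216, adjusted 0.856) and a slope of 1.85 (SE 0.69, edgeR adjusted p = 0.447). Rgs8 had r = 0.356 (exact permutation p = 0.382, adjusted 0.843), rho = 0.452 (exact permutation p = 0.267, adjusted 0.856) and a slope of 0.97 (SE 0.64, edgeR adjusted p = 0.710). Both had their lowest value in p95HER2 4. Without p95HER2 6 alone the slopes were 1.12 and 0.57, the lowest with any 1 tumour left out, and the highest were 2.38 for Gpr149 without p95HER2 8 and 1.31 for Rgs8 without p95HER2 7. Without p95HER2 6 and 8 the sign turned, to r = -0.507 for Gpr149 and -0.506 for Rgs8 (exact permutation p = 0.325 and 0.299, n = 6).

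**Figure D2:**
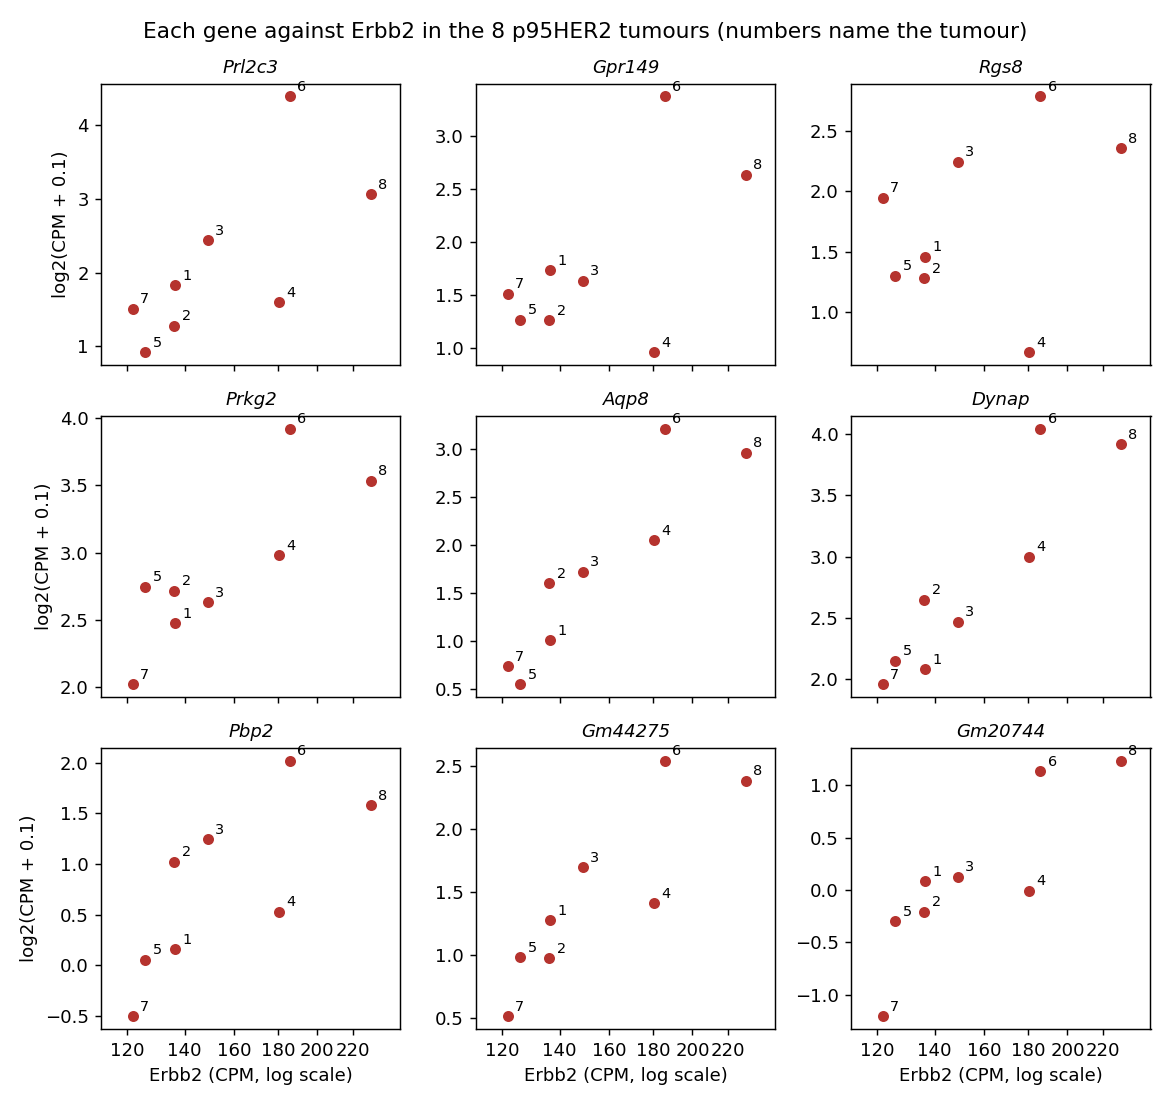
Each gene, as log2(CPM + 0.1), against Erbb2 in CPM on a log axis in the 8 p95HER2 tumours, with the tumour's number beside its point. Dynap and Aqp8 (r = 0.914 and 0.912) are lowest in tumours 7, 5 and 1 and highest in 6 and 8, with 6 above 8, while Rgs8 and Gpr149 (r = 0.356 and 0.597) are lowest in tumour 4.

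Over all 15284 genes no exact permutation p passed adjustment, with 1265 genes at an unadjusted p under 0.05 for r and 994 for rho. The smallest p that 8 tumours allow is 2.48e-05. Other measures moved with Erbb2 too. Across the p95HER2 tumours the luminal epithelial level had r = 0.851 with Erbb2, the oocyte, endothelial, trophoblast and fibroblast levels 0.781, 0.718, 0.674 and 0.492, the macrophage level 0.234 and the library total 0.243. The oocyte and trophoblast lists rest on a few counts per gene and library. The luminal level had r = 0.762 with Dynap, 0.704 with Aqp8 and 0.068 with Rgs8. The luminal list holds Krt7, itself 1 of the 35 genes that passed. With the luminal level as a covariate none of the 15284 genes passed in edgeR (1313 at an unadjusted p under 0.05), while the slopes of Dynap and Aqp8 were 2.54 (adjusted p = 0.488) and 3.63 (adjusted p = 0.425). With the macrophage level as a covariate 96 genes passed, and Dynap and Aqp8 stayed called with slopes of 2.21 (edgeR adjusted p = 0.00882) and 2.66 (edgeR adjusted p = 0.0124).

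Among EV tumours Erbb2 ranged from 60.4 to 74.9 CPM, and 5 members had a count in at least 8 of the 10. Pbp2, Gm44275, Gm20744, Prkg2 and Rgs8 had r of -0.264, 0.421, 0.118, 0.413 and -0.315 with Erbb2 there, with rho of -0.200, 0.503, 0.030, 0.261 and -0.200. No permutation p passed over the 17114 genes examined (adjusted p of 0.968 or above for r and 1.0 for rho; unadjusted p of 0.222 or above for r and 0.144 or above for rho). Without the pair of EV tumours farthest from the median Erbb2, the 5 values of r were -0.533, 0.028, -0.390, 0.021 and 0.227.

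The members also moved with one another. Over the 8 p95HER2 tumours the 36 pairs of members had r of 0.454 to 0.974 with a median of 0.859, given as a description with no test because all share the high values of p95HER2 6 and 8. Without these tumours r was -0.714 to 0.911 with a median of 0.526, and 25 of 36 pairs were positive. Dynap and Aqp8 (0.974, and 0.911 without the pair of tumours) and Gm44275 and Gm20744 (0.969 and 0.902) stayed together, as did Gpr149 and Rgs8 (0.867 and 0.797). Dynap and Gpr149 parted, with r = 0.761 over all 8 tumours and -0.714 without p95HER2 6 and 8. The neighbours Pbp2 and Gm44275 had r = 0.897 and 0.742.

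**Figure D3:**
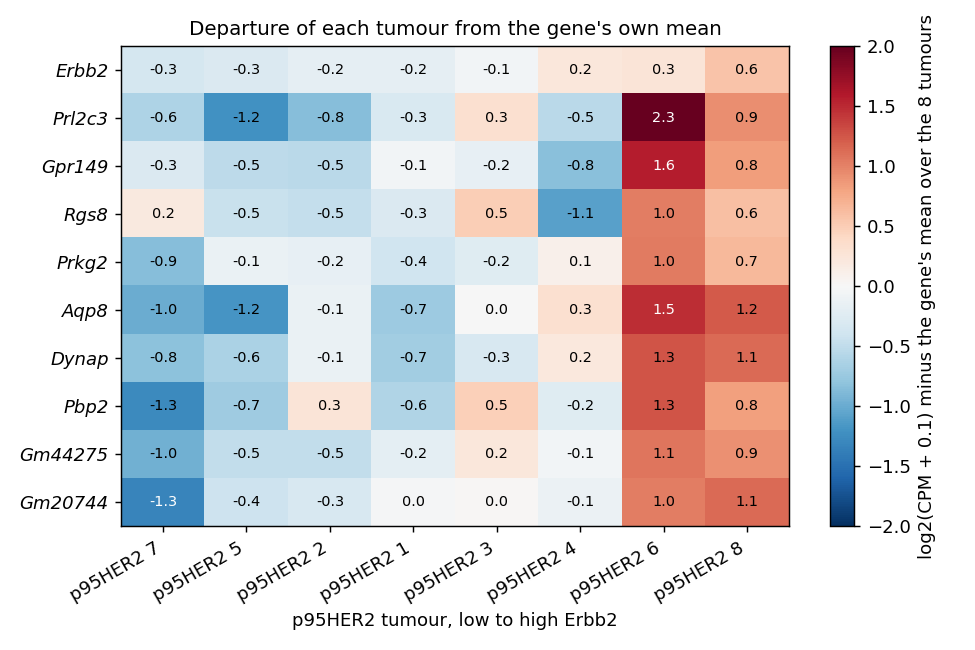
Departure of each p95HER2 tumour from the gene's own mean over the 8 tumours, on the log2(CPM + 0.1) scale, with tumours ordered from low to high Erbb2. All genes are above their mean in p95HER2 6 and 8, and p95HER2 4 is above the mean for Dynap, Aqp8 and Prkg2 and below it for Gpr149 and Rgs8.

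For each member the genes of most similar pattern over the 8 p95HER2 tumours were taken from 12082 genes with a mean of at least 1 on the log2 CPM scale. Genes with a predicted-gene or clone name were left out, among them Gm44275 and Gm20744, which had r = 0.969 with each other. Dynap was most like the keratin gene Krt7 (r = 0.991), the laminin subunit gene Lama3 (0.976) and the adhesion receptor gene Cd44 (0.976). Aqp8 was most like the protease gene Klk6 (0.991), Dynap (0.974) and Ank2 (0.970). Prkg2 was most like the growth hormone receptor gene Ghr (0.987), Gpank1 (0.973) and Cd44 (0.965). Krt7, Lama3, Cd44, Klk6 and Ghr were also higher in p95HER2 than in EV tumours, by 1.03, 3.96, 0.37, 5.73 and 0.23 on the log2 scale (edgeR adjusted p = 0.0426, 1.66e-07, 0.00246, 1.56e-06 and 0.0330), while Ank2 and Gpank1 were not called (edgeR adjusted p = 0.213 and 0.316).

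The other members were most like genes that mostly gave no call between the groups. Prl2c3 was most like Prdm1, which encodes a transcriptional repressor (r = 0.976), then Ptpre (0.963) and Glrx (0.961), and Gpr149 was most like Ptpre (0.970), Adcy3 (0.961) and Mterf1b (0.946). Pbp2 was closest to Igfbp7 (0.984), Cavin1 (0.972) and Maf (0.968), of which Maf was lower in p95HER2 tumours (log2 fold change -0.70, edgeR adjusted p = 0.00358). Within the genes compared, Gm44275 was closest to Il1rl1 (0.967), Ptprn (0.965) and Ltbp2 (0.964), of which Ltbp2 was higher by 0.33 (edgeR adjusted p = 0.0217). Within the same genes, Gm20744 was closest to Camk2b (0.985), Cybc1 (0.961) and Rtkn (0.959). Rgs8 was closest to the interferon-induced gene Ifi209 (0.984), Dexi (0.978) and Tmem106a (0.966), and Ifi209 was lower in p95HER2 tumours (log2 fold change -0.85, edgeR adjusted p = 0.0199). These 8 tumours and their libraries are shared by every such value, and the genes were picked for a high r, so none carries a test. Without p95HER2 6 and 8, r was lowest for Gpr149 with Ptpre (0.651) and Mterf1b (0.704) and for Prl2c3 with Ptpre (0.736). The other values of r without them ran from 0.807 (Gpr149 and Adcy3) to 0.986 (Aqp8 and Klk6).

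The gene families and pathways of the members were examined next, in the p95HER2 against EV comparison. For scale, 4502 of all 17123 genes tested had an unadjusted p under 0.05 in edgeR. DESeq2 called 1267 higher and 1156 lower of 19426 genes. Of the other prolactin family genes 25 were in the table, none passed the filter on low counts, and 20 had 0 counts in every library. Prl2c2, the near-identical paralog, had 145 counts over the 8 p95HER2 tumours and 0 over the 10 EV tumours, and Prl8a9 had 118 and 0. Prl2c5 had 5 and 0 counts, Prl6a1 39 and 24 and Prl7b1 0 and 1. DESeq2, run without that filter, called 2 of the 25 higher. Igf2r, whose product binds proliferin in mouse, was higher by 0.14 on the log2 scale (380 ± 21.7 against 345 ± 15.6 CPM; SE 0.04, edgeR adjusted p = 0.0263). The prolactin receptor gene Prlr was at 83.3 ± 15.7 CPM in p95HER2 tumours and 82.5 ± 11.9 CPM in EV tumours (edgeR adjusted p = 0.956).

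Of 15 tested genes of cyclic GMP signalling edgeR called 2 higher and none lower in p95HER2 tumours, against 5.73% and 4.45% of all genes tested. Of the 20 in the table DESeq2 called 3 higher and 1 lower, and 7 of the 15 had an unadjusted p under 0.05 in edgeR. The changes had a median of -0.22 on the log2 scale against -0.01 over all genes tested. Nppb, which encodes the natriuretic peptide BNP, a hormone that raises cyclic GMP through its receptor, was at 1.04 ± 0.777 CPM in p95HER2 tumours and 0.112 ± 0.104 CPM in EV tumours, a log2 fold change of 3.18 (SE 0.44, edgeR adjusted p = 0.000199). Pde9a, which encodes a phosphodiesterase that breaks cyclic GMP down, was higher by 0.28 (SE 0.06, edgeR adjusted p = 0.00377). Prkg1, encoding the other cyclic GMP-dependent kinase, was at 1.503 ± 0.524 CPM in p95HER2 tumours and 2.20 ± 0.810 CPM in EV tumours (edgeR adjusted p = 0.157).

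Of 6 tested aquaporin genes other than Aqp8 edgeR called none higher and 2 lower, with a median of 0.09 on the log2 scale, and DESeq2 called 3 of the 11 in the table lower. Aqp1, the water channel of capillaries and red cells, was at 24.6 ± 4.73 CPM in p95HER2 tumours and 35.4 ± 8.83 CPM in EV tumours (log2 fold change -0.53, SE 0.15, edgeR adjusted p = 0.0343). Aqp4, the water channel of glia and muscle, was at 0.196 ± 0.147 and 0.938 ± 0.917 CPM (log2 fold change -2.24, SE 0.67, edgeR adjusted p = 0.0382). The summed skeletal muscle markers ran from 332 to 3470 CPM in p95HER2 tumours and from 109 to 6869 CPM in EV tumours, with none of 10 called in edgeR or DESeq2 (3 at an unadjusted p under 0.05), and their part in the Aqp4 value was not tested.

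Of 6 tested RGS genes of the same R4 subfamily as Rgs8 none passed in edgeR, 2 had an unadjusted p under 0.05 and DESeq2 called 1 lower. Rgs2 came nearest, at 10.5 ± 1.56 CPM in p95HER2 tumours and 13.5 ± 2.79 CPM in EV tumours (edgeR adjusted p = 0.0584). Of 12 dynactin subunit genes, which encode the complex that Dynap was named for, none passed in edgeR, 3 had an unadjusted p under 0.05 and DESeq2 called 1 lower. These unadjusted counts stand against 4502 of all 17123 genes tested. Pebp1, which encodes the widely expressed relative of Pbp2, did not pass (423 ± 50.6 against 501 ± 76.6 CPM, edgeR adjusted p = 0.0831).

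Markers of the tissues in which the members are best known gave no call towards higher levels. Of 14 trophoblast markers none passed the filter and 8 had 0 counts in every library, with a summed level of 0.204 to 0.790 CPM in p95HER2 tumours and 0.155 to 0.717 CPM in EV tumours. Of 10 oocyte markers none passed the filter either, and their sum was 0.0919 to 0.570 CPM in p95HER2 tumours and 0.216 to 0.681 CPM in EV tumours. Of 10 testis germ cell markers 1 passed the filter and was not called in edgeR or DESeq2, with no unadjusted p under 0.05, and their sum was 0.306 to 0.644 CPM and 0.164 to 0.708 CPM. Of 10 cerebellar neuron markers 3 were at 0 in every library, among them Calb1 and Gabra6, and none of the 2 that were tested passed in edgeR or DESeq2 (1 at an unadjusted p under 0.05). These were Itpr1, at 61.8 ± 4.25 CPM in p95HER2 tumours and 55.7 ± 5.20 CPM in EV tumours, and Pvalb, also a skeletal muscle marker, at 67.4 ± 52.1 and 146 ± 82.4 CPM. Of 10 intestinal and pancreatic markers, with a sum of 1.99 to 3.61 CPM and 2.18 to 6.74 CPM, 2 were tested and Cela1, which encodes an elastase, was lower (log2 fold change -0.89, edgeR adjusted p = 0.0431).

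Neighbouring genes were compared last, since the 9 members lie at 8 separate places in the genome. Within 500 kb of a member lay 55 other tested genes, of which 7 (12.7%) were higher and 2 lower in p95HER2 tumours, against 5.73% and 4.45% of all genes tested, with a median log2 fold change of 0.02. Around Pbp2 and Gm44275 on chromosome 6, Emp1 was at 548 ± 77.2 CPM in p95HER2 tumours and 414 ± 71.8 CPM in EV tumours (log2 fold change 0.41, SE 0.10, edgeR adjusted p = 0.0124). Fam234b was higher by 0.36 (edgeR adjusted p = 0.0127). Gprc5a, which encodes an orphan receptor of epithelia, was higher by 1.42 (SE 0.43, edgeR adjusted p = 0.0439) and was also 1 of the 35 genes that followed Erbb2. Dynlt1-ps1, the gene nearest to Gm44275 on its far side, was at 0.11 (edgeR adjusted p = 0.747).

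Around Rgs8 the laminin subunit gene Lamc1 was higher by 0.19 (edgeR adjusted p = 0.00947), and Glul, which encodes glutamine synthetase, was lower (log2 fold change -0.35, edgeR adjusted p = 0.00531). The nearest relative, Rgs16, lies 40.0 kb away and was not called (-0.07, edgeR adjusted p = 0.879). Near Gm20744, Adamtsl3 was higher by 0.51 (edgeR adjusted p = 0.00157) and Tm6sf1 lower (log2 fold change -0.65, edgeR adjusted p = 0.0377), and near Aqp8 the call was Rbbp6, higher by 0.16 (edgeR adjusted p = 0.0368). No tested gene within 500 kb of Gpr149, Dynap, Prl2c3 or Prkg2 was called in edgeR.

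**Figure D4:**
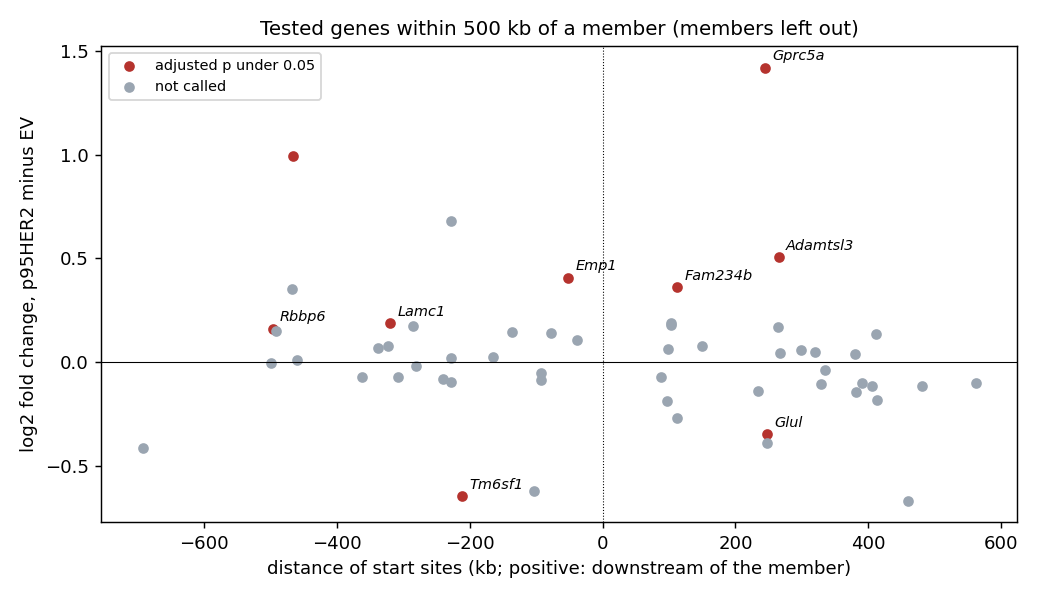
Log2 fold change (p95HER2 minus EV) of the 55 tested genes within 500 kb of the 9 genes, against the distance between start sites in kilobases, counted in the direction of transcription of the member. Red points passed at an adjusted p under 0.05 in edgeR, 7 higher and 2 lower, with names for those described in the text, and most points lie near 0.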

How the data were processed

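RNA was sequenced from 18 PB2 tumours. The deposited table holds unnormalised read counts by Ensembl gene for each tumour, made with STAR 2.5, HTSeq 0.6.1 and genome build mm10, per the submitters' processing notes. Strand option and annotation release are not stated, which leaves overlapping genes uncertain. All 18 libraries differed by more than sampling noise and count as separate samples. Depth was 32686558 to 38464541 counts.

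Samples were grouped by the labelled genotype. Members and gene lists were chosen with earlier results of these data known. Predicted-gene and clone names were left out of the likeness comparison. Genes named were the members, called members of the lists, called or nearest neighbours, and the 3 genes most like each member. Of these, 1 neighbour is not reported here. Beyond these, Prl2c2, Prl8a9, Prl2c5, Prl6a1, Prl7b1, Pebp1, Prlr, Prkg1, Calb1 and Gabra6 were chosen after their values were seen.

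CPM are counts over the TMM-scaled library total. edgeR 4.0.16 (R 4.3.3) ran a robust quasi-likelihood test with Benjamini-Hochberg adjustment over all genes kept by filterByExpr (minimum count 10, total 15). It was run for p95HER2 minus EV, and on log2 Erbb2 CPM within p95HER2 tumours. Two-sided permutation tests used all 40320 orders of the 8 p95HER2 tumours and 100000 resamples of the EV tumours, with a pseudocount of 0.1 CPM. Slope and permutation scripts were tested on simulated data. Alternatives were other scaling, no filter, DESeq2 1.42.0, covariates, linear Erbb2, pseudocounts of 0.5 CPM and tumours left out. Leaving out p95HER2 6 and 8, the tumours farthest from the median Erbb2, was planned for the correlations with Erbb2. It was added after seeing the data for fold changes, slopes and counts of calls. It was not planned for mean levels, r between members or r with similar genes. Coordinates come from GENCODE M21 (GRCm38) and promoters from RefSeq, 1-based.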

Additional observations from a re-analysis of the deposited data

Results flagged for a closer look

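Of 20 groups of tumours examined, 1 group for each of 10 genes in each genotype, 3 had a tumour far from the rest. The cutoff flags about 1 group in 20 by chance where values are normally distributed, and whether these CPM values are was not tested. That rate does not apply to the EV values below, where the genes were chosen for being near 0 and 1 or 2 counts set a tumour apart by construction. Prl2c3 had 20.9 CPM in p95HER2 6, with the next p95HER2 tumour at 8.26 CPM. That gap was 0.662 of the range in CPM, above the cutoff of 0.526, and the log scale was not examined. Among EV tumours Prl2c3 had 0.026 CPM in EV 5, which is 1 count, and 0 elsewhere. Aqp8 had 0.057 CPM in EV 3, which is 2 counts, with the next EV tumour at 0.027 CPM.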

How the results depend on the processing

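The count of genes called between p95HER2 and EV tumours stayed within 1.5 times of 1743 under all 23 alternatives run. The count of genes that followed Erbb2, 35, did not. It was 93 with no filter on low counts, 242 with DESeq2, 0 with the luminal level as a covariate (1313 at an unadjusted p under 0.05), 96 with the macrophage level and 0 without p95HER2 6 and 8 (1505 at an unadjusted p under 0.05), and ran from 2 to 121 when each p95HER2 tumour was left out in turn. Without p95HER2 6 and 8 the slopes of Gpr149 and Rgs8 reversed to -0.75 and -1.22 and their r to -0.507 and -0.506. The fold changes, slopes and counts without p95HER2 6 and 8 were chosen after seeing the data, while the values of r with Erbb2 without them were planned. Mean levels, r between members and r with similar genes without these tumours were not planned. The other 115 recomputed values of r with Erbb2 kept their sign and stayed short of the threshold. The fitted fold changes of Gpr149, Dynap, Aqp8 and Prl2c3, whose EV counts are near 0, moved to 6.02, 6.40, 5.97 and 6.67 with a prior count of 2. No cause was tested. No paired analysis was possible because the labels give no shared replicate numbers. Depth limits the EV values of 7 of the 9 genes, which rest on 10 or fewer counts per library.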
